A study of Mus musculus with 14 samples.

Results

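The genes described here are 48 genes of the mouse cell cycle, chosen by name with earlier results of these data known. Among them are 5 D-type cyclins and their kinases, 5 genes of entry into DNA replication, 8 of origin licensing and 3 of DNA synthesis. The rest are 10 G2/M kinases, cyclins and regulators, 13 genes of the spindle, kinetochore and mitotic exit, and 4 inhibitors of cyclin-dependent kinases (CDKs). Each of the 48 symbols matched 1 row of the count table of 55487 gene identifiers, and all 48 were among the 14754 genes with enough counts to be tested. Monocytes were purified from leg bone marrow, either wild-type or labelled deficient for the aryl hydrocarbon receptor (AhR), a transcription factor switched on by small ligands, and their RNA was sequenced. The cells spent 3 h in culture, either in medium alone or with mouse IL-4 at 20 ng/mL, a cytokine of type 2 immunity that drives alternative activation of macrophages. Numbers in the titles of the 14 libraries run 1, 2, 3 and 7 for wild type, which was sequenced in medium (n = 4) and in IL-4 (n = 4), and 4, 5 and 6 for AhR-deficient cells, likewise in both conditions (n = 3 each). The sources used here do not give the deleted part of Ahr, the strain, the age or the sex of the mice, or whether a number marks 1 mouse or a pool. The p-values therefore measure the spread between these libraries only.

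As background, a cell enters the cycle when D-type cyclins bind Cdk4 or Cdk6 and phosphorylate the retinoblastoma protein, which releases E2F transcription factors. E2F switches on cyclin E, the Mcm helicase that licenses replication origins, and the enzymes of DNA synthesis, while Cdk1 with cyclins A and B later drives mitosis. The mitotic genes are switched on late in the cycle by B-Myb and FoxM1 with the MuvB complex, and the same complex holds them off in resting cells. Monocytes descend from dividing progenitors of the bone marrow, and monocyte preparations from marrow can hold cells that still cycle.

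Both kinds of control leave motifs in promoters. RefSeq promoters of GRCm38.p6, from 250 bases before to 50 after the start of transcription, were found for 40 of the 48 members. Both strands were searched for 3 motifs, whose matches can overlap. The E2F motif (TTTGGCGC, TTTCCCGC or TTTCGCGC) was in 9 of 40 (22.5%), against 1.91% of 27025 promoters taken 1 a gene. The core of the cell cycle homology region, or CHR (TTTGAA or TTCGAA), which MuvB binds, was in 17 of 40 (42.5%) against 19.4%. The CCAAT box (CCAAT), which the factor NF-Y binds, was in 29 of 40 (72.5%) against 37.9%, and it was in all 17 promoters with a CHR core. E2F matches lay in 6 of 7 licensing promoters. CHR cores lay in 5 of 7 G2/M and in 10 of 12 spindle promoters, and in none of the 3 matched promoters of the D-type cyclins and their kinases or the 4 of the CDK inhibitors. A match is a description of the letters only. No entry was found for Ccnd1, Ccnd2, Ccne2, Mcm4, Ccna2, Aurkb, Foxm1 and Tpx2.

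Of these promoters, 7 are printed from 200 bases before to 10 after the start. Among them, 5 belong to genes that rose with IL-4 in both genotypes. Mcm5 and Cdk1 stand beside them as an origin licensing gene and the mitotic kinase. Cdk6 rose in both genotypes too, but its promoter held no E2F, CHR or CCAAT match and is not printed. Mcm4, the other gene that rose in both, had no promoter entry. Mcm6 lies at chr1:128359696-128359905 (minus strand) and Mcm5 at chr8:75109309-75109518 (plus strand). Capitals mark E2F matches, which overlap on opposite strands at 110 and 106 bases before the start in Mcm6 and at 153 and 149 bases before it in Mcm5. Mcm6 has a further match 47 bases before the start.
Mcm6: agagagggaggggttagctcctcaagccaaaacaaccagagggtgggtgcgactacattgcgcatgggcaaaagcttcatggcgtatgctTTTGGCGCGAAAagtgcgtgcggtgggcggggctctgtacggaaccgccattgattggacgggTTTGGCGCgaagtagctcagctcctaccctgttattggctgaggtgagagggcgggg
Mcm5: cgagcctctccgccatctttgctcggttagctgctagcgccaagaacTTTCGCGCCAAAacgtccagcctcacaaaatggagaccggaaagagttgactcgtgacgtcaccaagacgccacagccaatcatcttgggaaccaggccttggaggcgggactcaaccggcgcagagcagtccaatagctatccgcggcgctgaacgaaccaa

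In the mitotic promoters, capitals mark the CHR core and the CCAAT box, the latter written ATTGG where it lies on the other strand, and in Cdk1 also its E2F match, TTTCGCGC. Cdk1 lies at chr10:69352903-69353112 (minus strand), Ccnb2 at chr9:70421545-70421754 (minus strand), Cdc20 at chr4:118437334-118437543 (minus strand), Cenpf at chr1:189688077-189688286 (minus strand) and Kif23 at chr9:61946790-61946999 (minus strand). The CHR core nearest the start begins 15 bases before it in Cdk1 and 18 before it in Cdc20. In Ccnb2 it begins at base 5 of the transcript, and in Cenpf and Kif23 at base 3.
Cdk1: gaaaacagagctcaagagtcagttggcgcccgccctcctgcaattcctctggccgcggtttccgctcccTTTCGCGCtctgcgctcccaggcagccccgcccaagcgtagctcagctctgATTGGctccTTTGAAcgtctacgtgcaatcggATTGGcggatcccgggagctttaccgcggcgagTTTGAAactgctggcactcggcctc
Ccnb2: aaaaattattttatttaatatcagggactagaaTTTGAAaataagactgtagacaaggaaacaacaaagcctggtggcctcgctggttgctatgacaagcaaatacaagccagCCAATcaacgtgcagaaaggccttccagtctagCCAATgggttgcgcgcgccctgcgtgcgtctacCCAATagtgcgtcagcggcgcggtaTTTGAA
Cdc20: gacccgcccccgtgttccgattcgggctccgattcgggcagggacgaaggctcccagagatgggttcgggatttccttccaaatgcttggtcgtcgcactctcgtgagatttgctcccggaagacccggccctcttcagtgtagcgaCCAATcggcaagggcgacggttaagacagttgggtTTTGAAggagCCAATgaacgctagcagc
Cenpf: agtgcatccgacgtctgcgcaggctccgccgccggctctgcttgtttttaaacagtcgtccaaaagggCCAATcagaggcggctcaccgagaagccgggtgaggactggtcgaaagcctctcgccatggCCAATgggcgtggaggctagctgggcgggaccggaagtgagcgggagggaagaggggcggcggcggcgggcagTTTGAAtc
Kif23: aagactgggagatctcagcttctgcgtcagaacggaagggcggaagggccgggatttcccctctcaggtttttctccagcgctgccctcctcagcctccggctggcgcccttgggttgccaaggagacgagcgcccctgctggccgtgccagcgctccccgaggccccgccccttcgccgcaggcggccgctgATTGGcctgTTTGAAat

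Total counts ran from 33432502 to 42885079 a library. In medium, Ahr stood at 15.7 to 26.1 CPM in the AhR-deficient libraries, above the 11.4 to 14.4 of wild type. The table holds 1 count a gene and library, so loss of a part of Ahr cannot be read from it. Xist, the RNA of the inactive X chromosome, ran from 987 to 1284 CPM in the 6 AhR-deficient libraries and from 0.0242 to 2.12 CPM in the 8 wild-type ones, so genotype cannot be told apart from sex in any genotype difference below. The 10 monocyte markers, led by Lyz2, F13a1 and Csf1r, summed to 23305 to 27059 CPM in the medium libraries, while markers of B cells summed to at most 4.23 CPM and of T and NK cells to at most 4.96. Markers of myeloid progenitors, which divide, were present at 192 to 391 CPM in sum. The wild-type medium library of number 7 stood apart in Ccr2, a gene chosen after its values were seen. It held 478 CPM against 1424 to 1729 in the other wild-type medium libraries. Among the 4 it was the lowest for 34 of the 48 members. The share of all genes for which it was lowest is not given. Where a called change lost its call or moved by over 1.5 times without number 7, the value without it is given too.

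The cell cycle genes were well expressed in these monocyte preparations. Per length, their median was 24.5 RPKM (read counts scaled to exon length and library size), averaged over the 4 groups, against 4.08 over 14750 tested genes with a length, and 45 of 48 lay above that median. The highest were Cdkn1a at 100.7 RPKM, which encodes the p53-induced inhibitor p21, Mki67 at 85.1, which encodes the proliferation antigen Ki-67, and Pcna at 82.7, the sliding clamp of DNA polymerase. At the low end lay 2 of the 3 D-type cyclins, Ccnd1 at 0.207 and Ccnd2 at 0.757, and Cdc6, a helicase loader, at 1.92. Ccnd3 was the main D-type cyclin, at 20.9 RPKM in wild type in medium, beside 25.4 for Cdk4 and 4.49 for Cdk6. In these bulk libraries, fewer cycling cells and less RNA per cycling cell cannot be told apart. Nor do they show which cells of the preparation held this RNA.

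**Figure D1:**
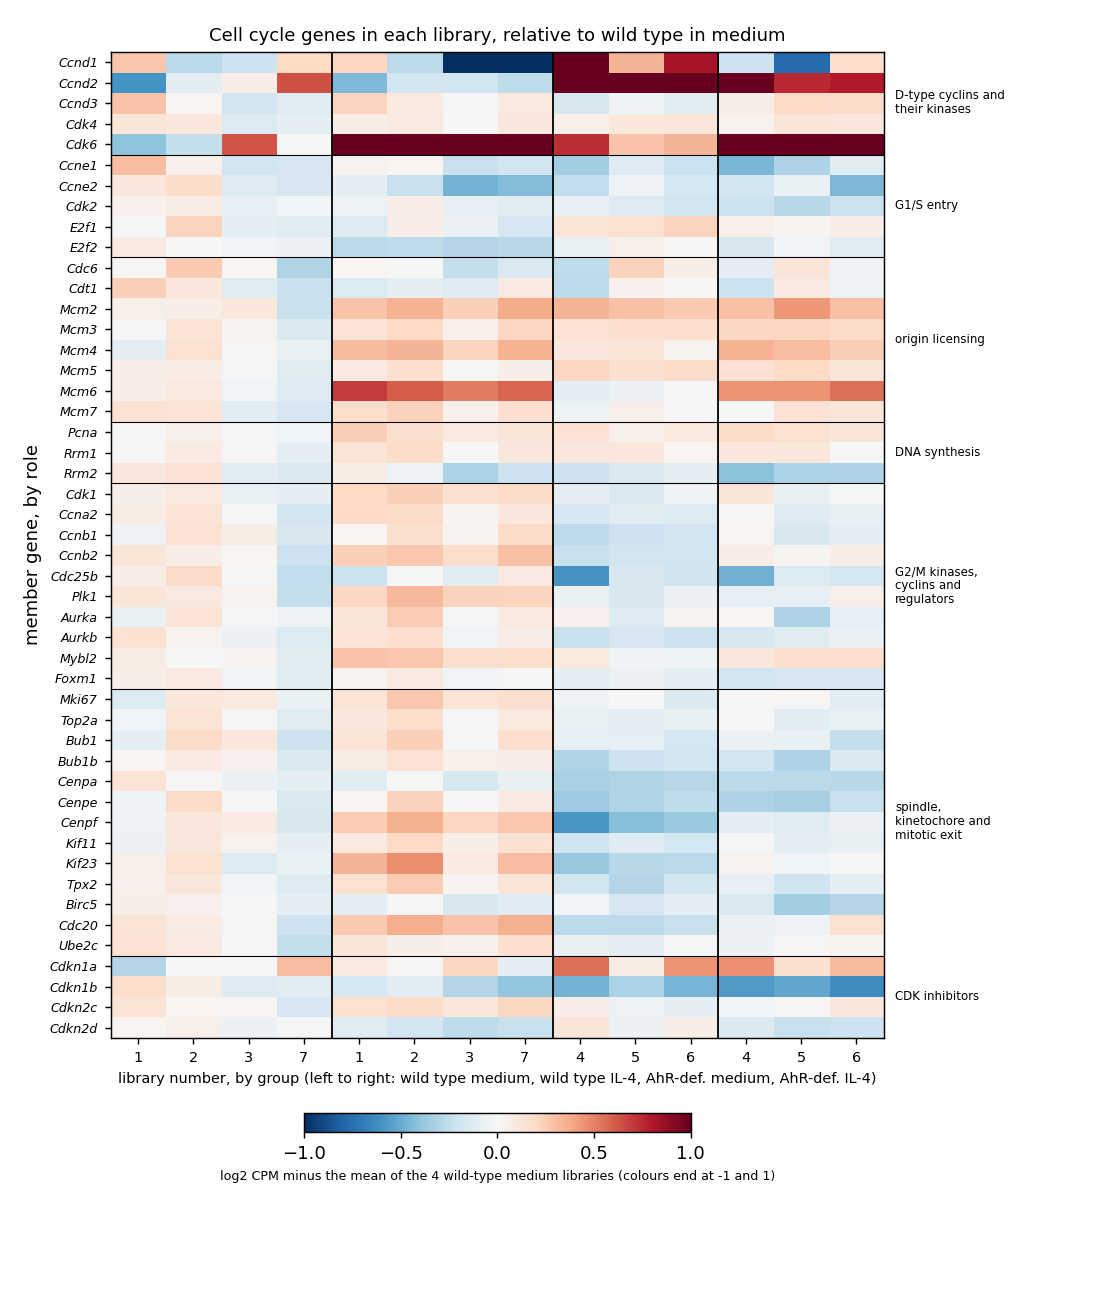
Level of each of the 48 members (vertical axis, by role) in each of the 14 libraries (horizontal axis, by group), as log2 CPM minus the mean of the 4 wild-type medium libraries; red is higher and blue lower, and colours end at -1 and 1. Cdk6 and Mcm6 were higher in all IL-4 libraries of both genotypes than in any wild-type medium library, Ccnd2 was higher in the 6 AhR-deficient libraries, and the spindle genes were mostly blue in AhR-deficient medium.

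IL-4 in wild-type monocytes raised 15 of the 48 members (31.2%, against 19.4% of all genes tested) and lowered 4 (8.33%, against 16.5%), while 29 did not pass (edgeR, adjusted p under 0.05, which 35.9% of all genes met in either direction). The rises were Cdk6, the licensing genes Mcm2, Mcm3, Mcm4 and Mcm6, Pcna, the G2/M genes Cdk1, Ccnb2, Plk1 and Mybl2, the mitotic genes Mki67, Cenpf, Kif23 and Cdc20, and the inhibitor Cdkn2c. The falls were E2f2, Ccne2, Cdkn1b and Cdkn2d. Apart from Cdk6 and Mcm6, the called changes were between -0.30 and 0.31 on the log2 scale, and the median of the 48 was 0.092 against 0.0089 over all genes. With the number as a block, 18 rose (22.8% of all genes) and 5 fell (19.9%). In 12 members the 4 IL-4 libraries all lay above the 4 medium libraries (18.4% of all genes did), and in 2 they all lay below (14.9%). Without the libraries of number 7, an alternative added after seeing the data, 11 rose and 3 fell, and Mcm3, Cdk1, Mki67, Cdkn2c and Ccne2 no longer passed. The share of all genes in that fit is not given. The falls came to 2 when wild-type medium number 1 or 2, or wild-type IL-4 number 3 or 7, was left out alone.

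**Figure D2:**
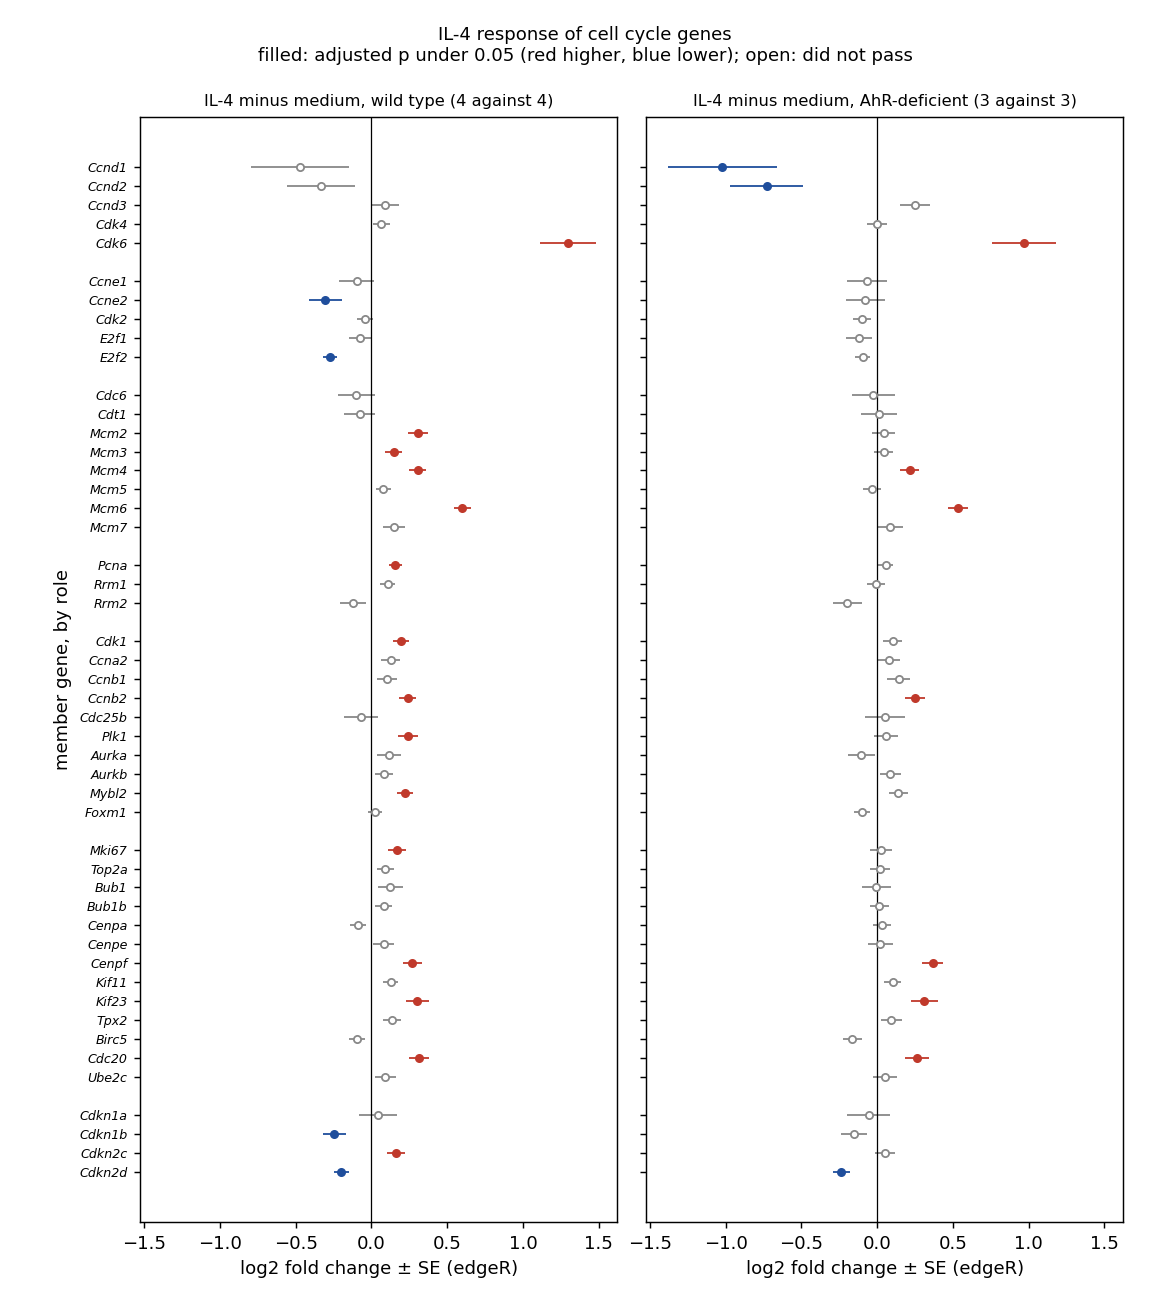
IL-4 response of each member (vertical axis, by role) as the edgeR log2 fold change with its standard error (horizontal axis), in wild type (left, 4 against 4 libraries) and AhR-deficient cells (right, 3 against 3). Filled red and blue points passed at an adjusted p under 0.05, 15 and 4 on the left and 7 and 3 on the right; open grey points did not.

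Cdk6, a kinase partner of the D-type cyclins, had the largest rise of the 48 in both genotypes (ENSMUSG00000040274.11, GRCm38 chromosome 5, 3341485 to 3531008, plus strand). In number order, it stood at 45.6, 51.2, 93.3 and 61.0 CPM in wild type in medium and at 152, 151, 180.2 and 134 in IL-4. AhR-deficient cells had 101, 73.6 and 76.5 CPM without IL-4 and 177, 157 and 157 with it. Every IL-4 library lay above every medium library, also across genotypes, and number 3 had the highest wild-type value in either condition. The change was 1.30 ± 0.18, adjusted p = 7.68e-05 in wild type and 0.97 ± 0.21, adjusted p = 0.00298 in AhR-deficient cells. Cdk4, the other partner kinase, stood at 82.7 ± 7.47 CPM in medium and 86.4 ± 2.76 in IL-4 (mean ± SD, wild type, n = 4), a difference that did not pass (0.064 ± 0.057, adjusted p = 0.424).

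None of the 3 D-type cyclins, which activate these kinases, rose with IL-4 in the model of all 14 libraries without a block. Ccnd3 stood at 222, 185, 159.7 and 168 CPM in wild type in medium and 212, 195, 181 and 194 in IL-4, with overlapping libraries (0.092 ± 0.087, adjusted p = 0.465), and it passed without wild-type medium number 1 (log2 0.19, adjusted p = 0.0327). In AhR-deficient cells it went from 163 to 178 to 189.6 to 209.5 CPM without overlap, which did not pass (0.25 ± 0.10, adjusted p = 0.0802) but passed with the number as a block (0.25 ± 0.055, adjusted p = 0.00486), without wild-type medium number 1 (log2 0.25, adjusted p = 0.0131) and in a fit of the AhR-deficient groups alone (log2 0.26, adjusted p = 0.0137). Ccnd1 and Ccnd2, both near the low end, fell with IL-4 in AhR-deficient cells, Ccnd1 from 1.99, 1.13 and 1.59 to 0.775, 0.525 and 1.02 CPM (-1.02 ± 0.36, adjusted p = 0.0472) and Ccnd2 from 16.3, 9.92 and 12.7 to 9.44, 6.92 and 7.11 CPM (-0.73 ± 0.24, adjusted p = 0.0339). Neither passed in wild type (-0.47 ± 0.32, adjusted p = 0.292 and -0.33 ± 0.22, adjusted p = 0.279), and both values were nearer 0 without number 7 (log2 -0.26, adjusted p = 0.674 and log2 -0.093, adjusted p = 0.811). The fall of Ccnd1 did not pass without wild-type medium number 2, 3 or 7, wild-type IL-4 number 2, AhR-deficient medium number 4 or 6 or AhR-deficient IL-4 number 4 or 5 (log2 -1.02 to -0.80, adjusted p = 0.0534 to 0.176). That of Ccnd2 did not pass without AhR-deficient medium number 4 or 6 or AhR-deficient IL-4 number 5 or 6 (log2 -0.74 to -0.53, adjusted p = 0.068 to 0.16).

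Of the 5 genes of entry into DNA replication, none rose with IL-4. E2f2, which encodes an activating E2F and was the most abundant of the 5 at 64.9 RPKM in wild type in medium, stood at 337, 316, 310.4 and 305 CPM in wild type in medium and 263, 266, 259 and 261 in IL-4 (-0.27 ± 0.045, adjusted p = 0.000273). The 2 sets of libraries did not overlap. In AhR-deficient cells its libraries overlapped, at 302 to 329 CPM in medium and 284 to 311 in IL-4 (-0.096 ± 0.052, adjusted p = 0.199). Ccne2, 1 of the 2 E-type cyclins, fell in wild type from 23.3, 24.4, 19.6 and 19.1 to 20.2, 18.4, 15.5 and 15.9 CPM (-0.30 ± 0.11, adjusted p = 0.0424), with overlap. This fall did not pass without wild-type medium number 1 or 2, wild-type IL-4 number 2, 3 or 7, AhR-deficient medium number 6 or AhR-deficient IL-4 number 4 (log2 -0.33 to -0.24, adjusted p = 0.051 to 0.13), nor without number 7 (log2 -0.32, adjusted p = 0.0714). Ccne1, Cdk2 (the kinase of cyclin E) and E2f1 lay between -0.098 and -0.042 in wild type and did not pass in either genotype.

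Origin licensing held the second largest rise. Mcm6, a subunit of the ring-shaped Mcm helicase (ENSMUSG00000026355.11, GRCm38 chromosome 1, 128331590 to 128359664, minus strand), stood at 148, 152, 139 and 129.7 CPM in wild type in medium and 231, 216, 203 and 213 in IL-4. AhR-deficient cells had 132, 137 and 141 CPM without IL-4 and 194, 194 and 208 with it. The IL-4 libraries all lay above the medium libraries in both genotypes, by 0.60 ± 0.056, adjusted p = 1.43e-06 in wild type and 0.54 ± 0.065, adjusted p = 2.38e-05 in AhR-deficient cells. Without number 7 the rise in wild type was 0.56. Its promoter, printed above, holds 3 E2F matches.

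The other 5 Mcm subunits had smaller changes. Mcm4 stood at 78.4, 93.4, 84.6 and 80.1 CPM in wild type in medium and 104, 106, 97.7 and 107 in IL-4, and at 90.4, 91.1 and 86.1 and 107, 104 and 99.7 in AhR-deficient cells. It rose in both (0.30 ± 0.055, adjusted p = 0.000577 and 0.21 ± 0.063, adjusted p = 0.0194), without overlap, and the call in AhR-deficient cells was lost without AhR-deficient medium number 6 or AhR-deficient IL-4 number 4 or 5 (log2 0.19 to 0.21, adjusted p = 0.0505 to 0.0733). Mcm2 rose in wild type, from 58.9, 59.5, 61.0 and 48.8 to 69.4, 72.2, 67.0 and 73.5 CPM (0.31 ± 0.065, adjusted p = 0.002); the lowest value was the medium library of number 7, and without that number the rise was 0.21. In AhR-deficient cells Mcm2 stood at 68.3 to 71.9 CPM in medium and 69.6 to 76.9 in IL-4, close to wild type in IL-4 (0.043 ± 0.075, adjusted p = 0.729). Mcm3 passed narrowly in wild type (0.15 ± 0.055, adjusted p = 0.0491) and lost its call in 12 of 14 fits that each left out 1 library, keeping it without wild-type medium number 2 and without wild-type IL-4 number 3 (log2 0.10 to 0.19 over the 14; log2 0.074, adjusted p = 0.341 without number 7). Mcm7 did not pass in wild type (0.15 ± 0.072, adjusted p = 0.128; log2 0.086, adjusted p = 0.468 without number 7). It passed with the number as a block (0.15 ± 0.049, adjusted p = 0.0273) and without wild-type medium number 1 (log2 0.20, adjusted p = 0.0445). Mcm5 did not pass in either genotype, and nor did Cdc6 and Cdt1, which load the helicase (0.079, -0.099 and -0.077 in wild type).

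Among the genes of DNA synthesis, Pcna rose in wild type from 183, 191, 184 and 181 to 219, 207, 197 and 201 CPM (0.16 ± 0.042, adjusted p = 0.0102), a call lost without wild-type IL-4 number 1 (log2 0.11, adjusted p = 0.0531). Rrm1 and Rrm2 encode the large and small subunits of ribonucleotide reductase, which makes deoxynucleotides. Neither passed in wild type (0.11 ± 0.052, adjusted p = 0.126 and -0.12 ± 0.085, adjusted p = 0.296), and Rrm1 passed without wild-type IL-4 number 3 (log2 0.14, adjusted p = 0.0463). With the number as a block, Rrm2 fell in both genotypes (-0.12 ± 0.040, adjusted p = 0.0283 in wild type and -0.20 ± 0.046, adjusted p = 0.00715 in AhR-deficient cells, where it also passed in a fit of those groups alone, log2 -0.19, adjusted p = 0.031), and it was lower in IL-4 within each of the 7 numbers.

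Of the 10 G2/M genes, 4 rose with IL-4 in wild type and 1, Ccnb2, rose in AhR-deficient cells. Ccnb2, a B-type cyclin that activates Cdk1, stood at 98.3, 95.1, 91.8 and 78.6 CPM in wild type in medium and 107, 109.5, 102 and 111 in IL-4, and at 77.5, 79.4 and 79.9 and 94.8, 92.5 and 94.7 in AhR-deficient cells. The libraries did not overlap in either genotype (0.24 ± 0.059, adjusted p = 0.00538 and 0.25 ± 0.068, adjusted p = 0.0116). Without number 7 the rise in wild type was smaller and passed (log2 0.15, adjusted p = 0.0251). Plk1, the polo-like kinase of mitotic entry, rose in wild type from 82.7, 80.8, 77.7 and 64.4 to 87.9, 95.4, 89.3 and 88.7 CPM (0.24 ± 0.068, adjusted p = 0.0129), with number 7 in medium the lowest (log2 0.17, adjusted p = 0.0364 without that number). Mybl2, which encodes B-Myb, went from 29.3, 28.0, 28.5 and 25.9 to 34.0, 33.6, 31.2 and 31.5 CPM (0.22 ± 0.053, adjusted p = 0.00441). Cdk1, the mitotic kinase, went from 76.5, 78.6, 70.2 and 68.8 to 84.5, 86.4, 81.7 and 83.9 CPM (0.20 ± 0.054, adjusted p = 0.012) and did not pass without number 7 (log2 0.16, adjusted p = 0.0778).

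In AhR-deficient cells Plk1, Mybl2 and Cdk1 did not pass (0.059 ± 0.079, 0.14 ± 0.061 and 0.10 ± 0.063). Ccna2, cyclin A2, did not pass in wild type (0.13 ± 0.063, adjusted p = 0.134; log2 0.077, adjusted p = 0.404 without number 7) but passed with the number as a block (0.13 ± 0.048, adjusted p = 0.0485). Foxm1, whose protein works with B-Myb on mitotic promoters, did not pass in either genotype (0.025 ± 0.046, adjusted p = 0.724 in wild type), and nor did Ccnb1, Cdc25b (a phosphatase that activates Cdk1), Aurka and Aurkb, the Aurora kinases.

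Of the 13 genes of the spindle, kinetochore and mitotic exit, 4 rose in wild type and 3 of these, Cenpf, Kif23 and Cdc20, also rose in AhR-deficient cells. Cenpf encodes a large kinetochore protein (ENSMUSG00000026605.14, GRCm38 chromosome 1, 189640606 to 189688086, minus strand). It stood at 89.7, 99.5, 97.0 and 82.4 CPM in wild type in medium and 109, 118, 107 and 111 in IL-4, and at 61.3, 68.4 and 71.0 and 85.9, 84.6 and 88.2 in AhR-deficient cells. The IL-4 libraries lay above the medium libraries within each genotype (0.27 ± 0.062, adjusted p = 0.00355 and 0.37 ± 0.072, adjusted p = 0.00142). Cdc20 activates the anaphase-promoting complex, which ends mitosis. It stood at 77.1, 74.2, 71.1 and 61.2 and 84.9, 90.8, 86.0 and 90.5 CPM in wild type and at 59.0, 59.0 and 60.4 and 67.7, 68.2 and 78.7 in AhR-deficient cells, in medium and IL-4. Neither pair of groups overlapped (0.31 ± 0.068, adjusted p = 0.00233 and 0.27 ± 0.079, adjusted p = 0.0198), though the call in AhR-deficient cells was lost without AhR-deficient medium number 4 or 5 or AhR-deficient IL-4 number 6 (log2 0.19 to 0.26, adjusted p = 0.0544 to 0.103). Without number 7 the rises in wild type were 0.22 for Cenpf and 0.23 for Cdc20, and both passed.

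Kif23, a kinesin of the midbody that forms when daughter cells part, rose from 159, 171, 139.8 and 147 to 194, 212, 163 and 191 CPM in wild type, with overlap because of number 3, and from 118, 127 and 128 to 157, 151 and 154 in AhR-deficient cells (0.30 ± 0.076, adjusted p = 0.0065 and 0.31 ± 0.088, adjusted p = 0.0155). The second call was lost without AhR-deficient medium number 4 (log2 0.28, adjusted p = 0.0644). Mki67 passed narrowly in wild type, at 765, 907, 902 and 804 CPM in medium and 923, 1013, 921 and 940.3 in IL-4 (0.17 ± 0.062, adjusted p = 0.046), and lost its call in 12 of 14 fits without 1 library, all but those without wild-type medium number 2 or 3 (log2 0.12 to 0.20 over the 14; log2 0.15, adjusted p = 0.174 without number 7). The spindle motor Kif11 and the spindle assembly factor Tpx2 did not pass in wild type (0.13 ± 0.050, adjusted p = 0.0649 and 0.14 ± 0.061, adjusted p = 0.0947) but passed with the block (0.13 ± 0.044, adjusted p = 0.0382 and 0.14 ± 0.040, adjusted p = 0.0177). Both also passed without wild-type medium number 2 and without wild-type IL-4 number 3. Top2a (topoisomerase II), Bub1 and Bub1b (spindle checkpoint kinases), Cenpe (a kinetochore motor), Cenpa (the centromeric histone) and Ube2c (a ubiquitin enzyme of mitotic exit) did not pass in either genotype. Birc5, which encodes survivin, did not pass in wild type (-0.095 ± 0.054) or in AhR-deficient cells (-0.16 ± 0.063, adjusted p = 0.0657), where it passed as a fall with the block (-0.16 ± 0.044, adjusted p = 0.0128) and without AhR-deficient IL-4 number 4 (log2 -0.22, adjusted p = 0.0256).

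The CDK inhibitors split. Cdkn2d, which encodes the Cdk4 and Cdk6 inhibitor p19, fell from 91.3, 93.4, 86.3 and 89.4 to 83.0, 78.7, 75.5 and 77.0 CPM in wild type and from 97.7, 86.5 and 94.4 to 81.3, 77.0 and 78.1 in AhR-deficient cells (-0.20 ± 0.047, adjusted p = 0.00455 and -0.24 ± 0.055, adjusted p = 0.00442), without overlap in either. Cdkn1b, which encodes p27, an inhibitor that holds cells at rest, fell in wild type from 163, 151, 132 and 133 to 128, 133, 118 and 110.3 CPM (-0.24 ± 0.075, adjusted p = 0.0208), with overlap. That call was lost without wild-type medium number 1 or 2 or wild-type IL-4 number 3 or 7 (log2 -0.23 to -0.19, adjusted p = 0.054 to 0.0689). In AhR-deficient cells the fall of Cdkn1b passed only with the block (-0.15 ± 0.049, adjusted p = 0.0307). Cdkn2c, which encodes p18, passed narrowly as a rise in wild type (0.16 ± 0.059, adjusted p = 0.0456), lost the call without wild-type medium number 2, 3 or 7, wild-type IL-4 number 1, 2 or 7, AhR-deficient medium number 5 or 6 or AhR-deficient IL-4 number 4 or 5 (log2 0.11 to 0.17, adjusted p = 0.0528 to 0.134), and lost it with the block as well (adjusted p = 0.0516). Without number 7 the change of Cdkn2c was 0.091. Cdkn1a did not pass in either genotype (0.042 ± 0.12 and -0.057 ± 0.14).

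In AhR-deficient monocytes IL-4 raised 7 of the 48 members (14.6%, against 15.4% of all genes) and lowered 3 (6.25%, against 14.2%), where 29.5% of all genes passed in either direction. These shares are near or below those of all genes, and the median change was 0.030 against -0.0091. The 7 rises were Cdk6, Mcm4, Mcm6, Ccnb2, Cenpf, Kif23 and Cdc20, each also called in wild type, and the falls were Ccnd1, Ccnd2 and Cdkn2d. With the number as a block 8 rose and 6 fell, against 18.4% and 17.8% of all genes. The IL-4 libraries all lay above the medium libraries for 14 members (22.3% of all genes) and all below for 8 (21.4%). The falls came to 1, Cdkn2d, when AhR-deficient medium number 4 or 6 or AhR-deficient IL-4 number 5 was left out.

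The difference between the 2 genotypes' IL-4 responses was tested directly, and no member passed (edgeR, 0 of 48 called, 0% of all genes). At an unadjusted p under 0.05 there were 2 members, Mcm2 (-0.26 ± 0.099) and E2f2 (0.18 ± 0.069), or 4.17% against 3.78% of all genes. DESeq2 and limma-voom also called none of the 48 and gave 2 each at the unadjusted threshold, and the block gave 6 (12.5% against 8.48%). No member's response was thus shown to differ between genotypes. Within numbers, 15 members (31.2%, against 22.2% of all genes) were higher in IL-4 in all 7 pairs (Cdk6, Mcm3, Mcm4, Mcm6, Mcm7, Pcna, Cdk1, Ccnb2, Mybl2, Mki67, Cenpf, Kif11, Kif23, Tpx2 and Cdc20), and 6 (12.5%, against 19.6%) were lower in all 7 (Ccnd1, E2f2, Rrm2, Birc5, Cdkn1b and Cdkn2d).

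Marker lists also moved with IL-4. The 10 monocyte markers summed to 23305 to 26305 CPM in wild type in medium and 14982 to 16375 in IL-4, and to 23615 to 27059 and 15012 to 16633 in AhR-deficient cells. Of the 10, 7 fell in wild type and 6 in AhR-deficient cells, and none rose. The neutrophil markers summed to 2181 to 2802 CPM in wild type in medium against 6041 to 10629.8 in IL-4, and to 2156 to 3268 against 6846 to 8457 in AhR-deficient cells. Of those 10, Chil3 and Cxcr2 passed as higher in both genotypes and the other 8 did not pass. The median change of the 10 was 0.044 in wild type (7 above 0) and -0.17 in AhR-deficient cells (7 below 0). Of the 10 progenitor markers Flt3 rose and Kit fell in each genotype (these 4 markers are named after their values were seen). The sums of all 10 overlapped between medium and IL-4, but within every number the sum was higher in IL-4. Changes were above 0 for 8 of the 10 in wild type (median 0.21) and for 5 in AhR-deficient cells (median 0.030). Erythroid markers changed below 0 for 10 of 12 in wild type (median -0.72, 1 called) and 12 of 12 in AhR-deficient cells (median -0.39, 0 called). Plasma cell markers summed to 280 to 324 CPM in wild type in medium and 403 to 465 in IL-4. In AhR-deficient cells these sums were 352 to 415 and 472 to 512. In each genotype 1 of 5 tested plasma cell markers rose and 1 fell. The median change of the 5 was -0.13 in wild type (3 below 0) and 0.018 in AhR-deficient cells (2 below 0), so the rise of the sums was not shared by the list. The part of these shifts in the responses of the cell cycle genes was not tested.

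**Figure D3:**
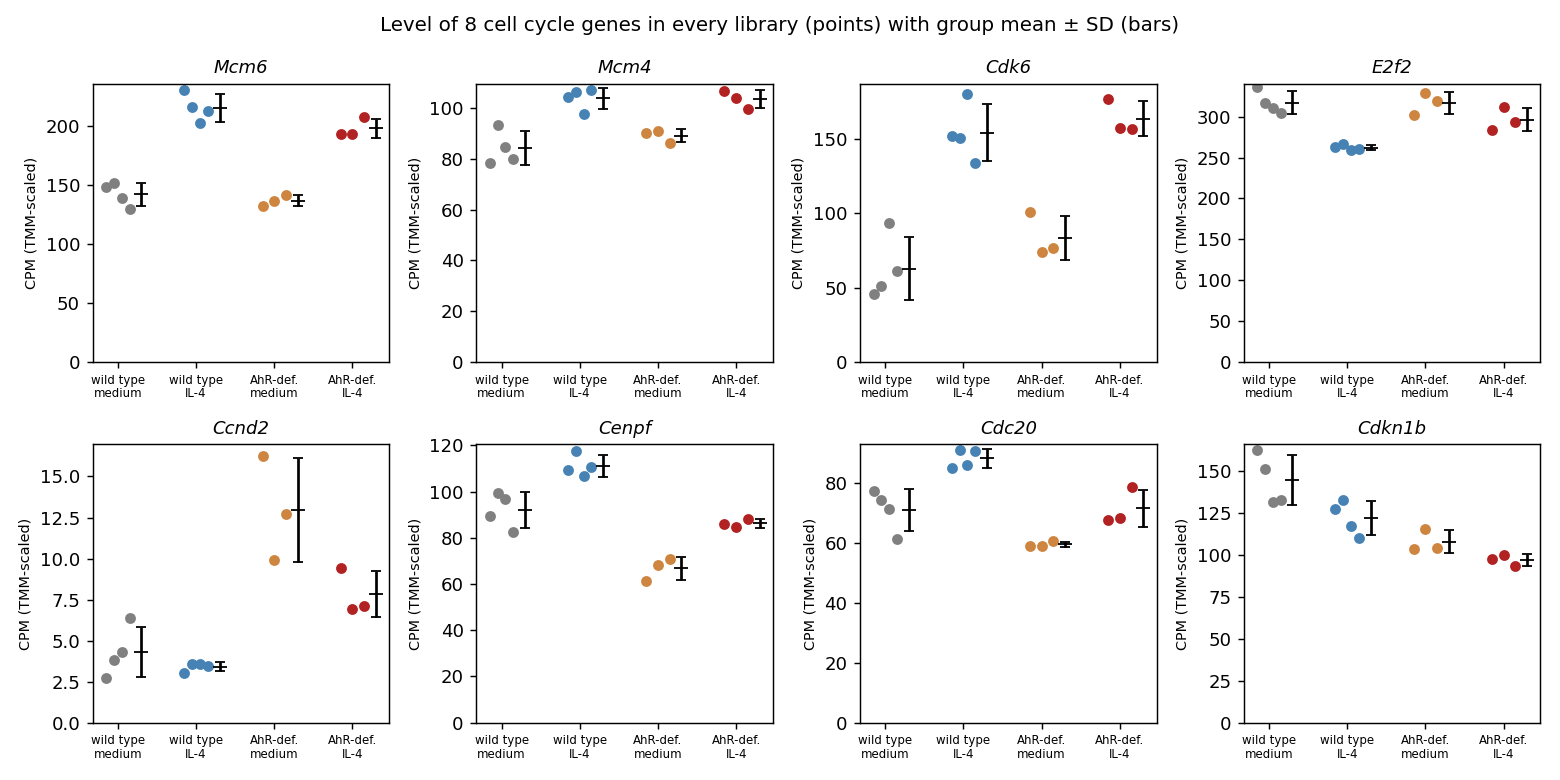
CPM (vertical axis, from 0) of 8 members in every library (points) in the 4 groups (horizontal axis), with the group mean ± SD in black. Mcm6, Mcm4 and Cdk6 were higher in IL-4 in both genotypes, Ccnd2 was higher in AhR-deficient cells in both conditions, and Cenpf and Cdkn1b were lower there in medium.

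Between genotypes in medium, 6 members were lower in AhR-deficient cells (12.5%, against 3.95% of all genes) and 3 were higher (6.25%, against 4.16%), while 8.11% of all genes passed in either direction. Lower were 5 of the 13 spindle genes, Cenpf, Cenpa, Cenpe, Kif23 and Bub1b, and the inhibitor Cdkn1b. Higher were Ccnd2, Mcm2 and Mcm5. All 13 spindle genes had a difference below 0 (median -0.22), as did 9 of the 10 G2/M genes (median -0.13), none of which passed. Libraries of the 2 genotypes did not overlap for 12 members that were lower (9.45% of all genes) and 6 that were higher (10.5%).

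These counts moved with the libraries and the model. The share of all genes is not given for the fits in this paragraph, so their counts are not read against it. Without the libraries of number 7, 12 members were lower, with Ccnb1, Ccnb2, Aurkb, Kif11, Tpx2 and Cdc20 added (log2 differences of -0.32 to -0.20), and 3 were higher, where Cdkn1a (0.46, adjusted p = 0.0430) took the place of Mcm5 (log2 0.14, adjusted p = 0.103). With 1 library left out, 13 were lower without wild-type medium number 7, 3 without wild-type medium number 2 or AhR-deficient medium number 5 or 6, and 1 (Cenpf) without AhR-deficient medium number 4. In the other direction 1 (Ccnd2) was higher without wild-type medium number 2 or AhR-deficient medium number 4 or 6. In a fit of the 2 medium groups alone, 0 passed in either direction.

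**Figure D4:**
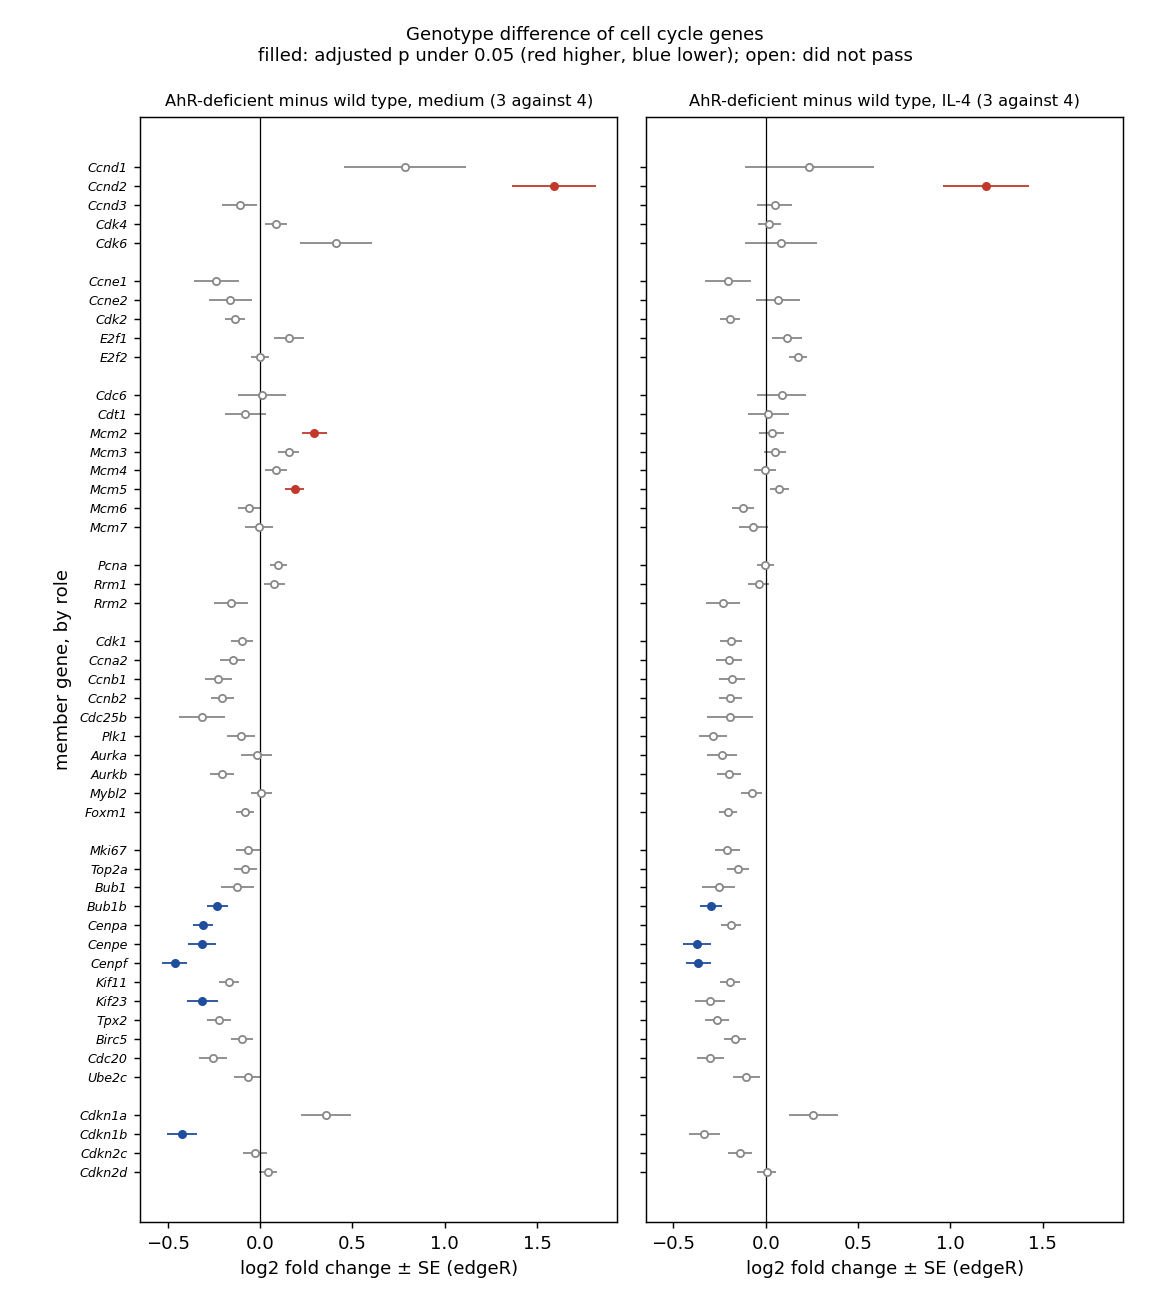
AhR-deficient minus wild type for each member (vertical axis, by role) as the edgeR log2 fold change with its standard error (horizontal axis), in medium (left) and in IL-4 (right), 3 against 4 libraries. All 13 spindle genes lay left of 0 in both panels, and Ccnd2 lay far to the right in both; filled points passed at an adjusted p under 0.05.

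Ccnd2, cyclin D2, had the largest genotype difference (ENSMUSG00000000184.12, GRCm38 chromosome 6, 127125162 to 127152193, minus strand). Its level was low, at 2.71, 3.80, 4.31 and 6.39 CPM in wild type and 16.3, 9.92 and 12.7 in AhR-deficient cells in medium, and 3.02, 3.60, 3.60 and 3.44 against 9.44, 6.92 and 7.11 in IL-4. The genotypes did not overlap in either condition. The difference was 1.59 ± 0.23, adjusted p = 0.00319 in medium and 1.19 ± 0.23, adjusted p = 0.028 in IL-4. Wild-type number 7 in medium was the highest wild-type library, and without number 7 the difference in medium was 1.83. In a fit of the medium groups alone it was 1.58 with an adjusted p of 0.0537. The call in IL-4 was lost without wild-type IL-4 number 1, 2 or 7 or AhR-deficient IL-4 number 4 or 5 (log2 1.04 to 1.28, adjusted p = 0.0526 to 0.134). Ccnd1 lay higher in AhR-deficient cells in medium without overlap and did not pass (0.79 ± 0.33, adjusted p = 0.146).

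Cenpf was the lowest of the 48 relative to wild type in medium. Its libraries, given above, stood at 82.4 to 99.5 CPM in wild type and 61.3 to 71.0 in AhR-deficient cells in medium, and at 107 to 118 against 84.6 to 88.2 in IL-4. The difference was -0.46 ± 0.068, adjusted p = 0.00379 in medium and -0.36 ± 0.067, adjusted p = 0.0233 in IL-4, without overlap in either. The AhR-deficient IL-4 libraries lay within the range of wild type in medium. In IL-4 the call was lost without wild-type IL-4 number 1 or 2 or AhR-deficient IL-4 number 4 or 5 (log2 -0.36 to -0.33, adjusted p = 0.0738 to 0.115).

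Cenpe stood at 115, 136, 119 and 107 CPM in wild type and 92.3, 96.5 and 99.4 in AhR-deficient cells in medium, and at 119 to 139.7 against 94.5 to 102 in IL-4. It was lower in both conditions (-0.31 ± 0.076, adjusted p = 0.0281 and -0.37 ± 0.076, adjusted p = 0.0328). Bub1b was lower in both too, at 110.3 to 129.5 against 99.4 to 108 CPM in medium and 126 to 135 against 98.8 to 110.1 in IL-4 (-0.23 ± 0.059, adjusted p = 0.0329 and -0.30 ± 0.059, adjusted p = 0.0306). For these 2 genes the genotypes never overlapped, and the calls still depended on single libraries. In medium Cenpe did not pass without wild-type medium number 2 or AhR-deficient medium number 4, 5 or 6 (log2 -0.34 to -0.24, adjusted p = 0.0503 to 0.144), and Bub1b did not pass without wild-type medium number 1 or 2 or AhR-deficient medium number 4, 5 or 6 (log2 -0.26 to -0.20, adjusted p = 0.0539 to 0.168). In IL-4 Cenpe did not pass without wild-type IL-4 number 1, 2 or 7 or AhR-deficient IL-4 number 4, 5 or 6 (log2 -0.41 to -0.32, adjusted p = 0.0507 to 0.14), and Bub1b did not pass without wild-type IL-4 number 1, 2 or 7 or AhR-deficient IL-4 number 4 or 5 (log2 -0.31 to -0.25, adjusted p = 0.0526 to 0.14).

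Cenpa and Kif23 passed in medium and not in IL-4. Cenpa stood at 160.4, 147, 140.5 and 137 CPM in wild type and 116, 118 and 119.6 in AhR-deficient cells (-0.31 ± 0.055, adjusted p = 0.00974), a call lost without AhR-deficient medium number 4 (log2 -0.30, adjusted p = 0.0663). Kif23 stood at 139.8 to 171 against 118 to 128 CPM (-0.31 ± 0.083, adjusted p = 0.0372), a call lost without wild-type medium number 1 or 2 or AhR-deficient medium number 4, 5 or 6 (log2 -0.34 to -0.26, adjusted p = 0.0618 to 0.175). In IL-4 the differences were -0.19 ± 0.055, adjusted p = 0.0976 and -0.30 ± 0.083, adjusted p = 0.0783, of like size, and the test of the difference between conditions (the interaction above) did not pass for either.

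Cdkn1b was lower in AhR-deficient cells in medium, at 104, 116 and 104 CPM against 163, 151, 132 and 133 in wild type (-0.42 ± 0.082, adjusted p = 0.012), without overlap (ENSMUSG00000003031.14, GRCm38 chromosome 6, 134920401 to 134925513, plus strand). That call was lost without AhR-deficient medium number 4 (log2 -0.39, adjusted p = 0.0789). In IL-4 its libraries did not overlap either, at 93.5 to 100.4 against 110.3 to 133 CPM, and the difference did not pass (-0.33 ± 0.082, adjusted p = 0.0584). Mcm2 was higher in AhR-deficient cells in medium (0.29 ± 0.070, adjusted p = 0.025), at the levels given above, and its call was lost without wild-type medium number 2 or AhR-deficient medium number 4 or 6 (log2 0.27 to 0.32, adjusted p = 0.0505 to 0.128). Mcm5 passed narrowly (0.19 ± 0.054, adjusted p = 0.0471) and lost its call in each of the 14 fits without 1 library (log2 0.15 to 0.21).

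Between genotypes in IL-4, 3 members were lower in AhR-deficient cells (Cenpf, Cenpe and Bub1b; 6.25%, against 0.664% of all genes) and 1 was higher (Ccnd2; 2.08%, against 0.956%). In either direction 1.62% of all genes passed. All 13 spindle genes and all 10 G2/M genes had differences below 0, with medians of -0.25 and -0.20. For 21 of the 48 members the 3 AhR-deficient libraries all lay below the 4 wild-type libraries (8.91% of all genes did): 11 of the 13 spindle genes, 7 of the 10 G2/M genes, Cdk2, Cdkn1b and Cdkn2c. For 2, Ccnd2 and E2f2, they all lay above (9.28% of all genes). Birc5 and Top2a were the spindle genes that overlapped. Without number 7, 6 were lower, with Plk1, Cdc20 and Cdkn1b added, and with the number as a random block in limma-voom Foxm1, Tpx2 and Cdkn1b were. No share of all genes is given for these fits or for those with 1 library left out. With 1 library left out, 0 were lower without wild-type IL-4 number 1 or 2 or AhR-deficient IL-4 number 4 or 5, 1 without wild-type IL-4 number 7, 5 without wild-type IL-4 number 3, and 8 or 9 without wild-type medium number 7 or 1. The comparison in medium and that in IL-4 use different libraries, but libraries of the same number are paired, so the 2 are not independent.

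**Figure D5:**
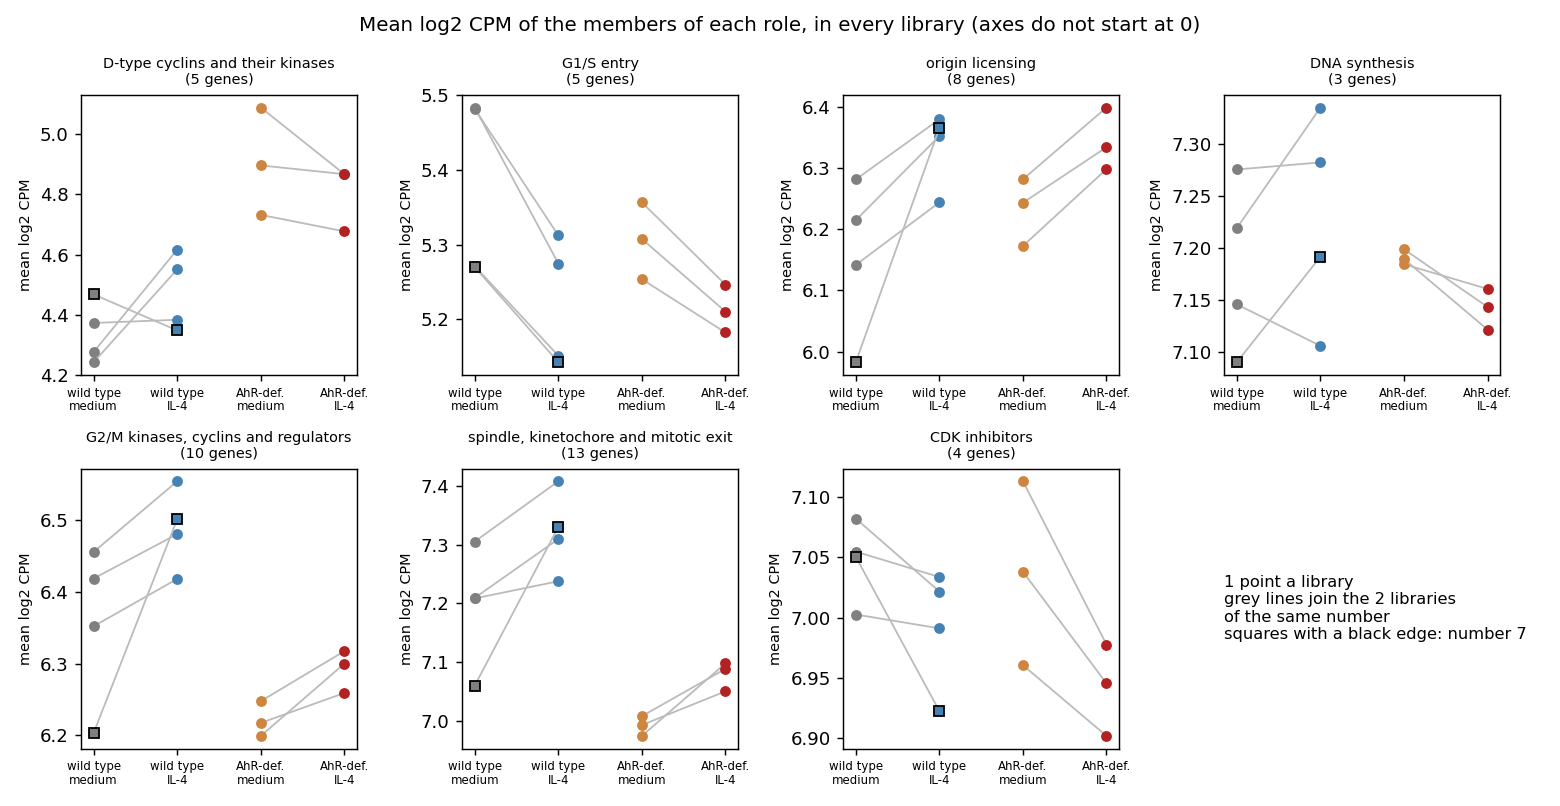
Mean log2 CPM of the members of each role (vertical axes, which do not start at 0) in every library, by group (horizontal axis); grey lines join libraries of the same number, and squares with a black edge mark number 7. For the 13 spindle genes the AhR-deficient libraries lay at 6.97 to 7.01 in medium, against 7.06 to 7.31 in wild type, and at 7.05 to 7.10 in IL-4, against 7.24 to 7.41.

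Summed over the 13 spindle genes, the AhR-deficient libraries held 2419 to 2472 CPM in medium against 2505 to 2918 in wild type, and 2519.7 to 2596 against 2806 to 3152 in IL-4. The 10 G2/M genes held 825 to 851 against 830.3 to 997 in medium and 857 to 895 against 961 to 1057 in IL-4. The 8 licensing genes overlapped, at 754 to 773 against 649 to 774 in medium and 832 to 866 against 805 to 881 in IL-4. Marker genes of other cell types are set beside these. Progenitor markers summed to 309 to 350.2 CPM in AhR-deficient cells in medium against 192 to 317 in wild type, and 1 of 10 (Prtn3) passed as higher. Of these 10, 8 lay above 0 (median 0.46). Eosinophil and basophil markers summed to 60.2 to 203 against 118 to 353, with 9 of 9 below 0 and 0 called, and erythroid markers to 42.0 to 112 against 55.7 to 130.2, with 12 of 12 below 0 and 0 called. Neutrophil markers summed to 2156 to 3268 against 2181 to 2802, with 9 of 10 below 0 and 0 called. In IL-4 the progenitor sums were 336 to 391 against 244 to 373, with 8 of 10 above 0 (median 0.27) and 0 of 10 called. Eosinophil and basophil markers summed to 56.1 to 185 against 105 to 339 in IL-4, with 9 of 9 below 0 (median -0.71) and 0 called. Neutrophil markers summed to 6846 to 8457 against 6041 to 10629.8, with 9 of 10 below 0 (median -0.83), 2 without overlap and 0 called, and erythroid markers to 34.0 to 73.1 against 29.8 to 75.8, with 8 of 12 below 0 and 0 called. In medium the medians of these lists were -0.52 (eosinophil and basophil), -0.59 (neutrophil) and -0.42 (erythroid). Their part in the result was not tested.

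Lists of further cell cycle genes, none of them members, were read in the same fits and were chosen with earlier results of these data known. They use the same libraries as the members, so they are no independent check of the member differences. Many member calls between genotypes were lost with 1 library left out. For these lists no fit with a library left out, or of the compared groups alone, is given. Of 46 other mitosis genes, 10 were lower in AhR-deficient cells in medium (21.7%, against 3.95% of all genes) and 0 higher (39 of 46 below 0, median -0.14). They included the kinesins Kif20a (-0.41 ± 0.083, adjusted p = 0.0134) and Kif20b (-0.38 ± 0.082, adjusted p = 0.0189), the spindle pole gene Aspm (-0.38 ± 0.078, adjusted p = 0.0136) and the kinetochore gene Ndc80 (-0.38 ± 0.080, adjusted p = 0.0151). In IL-4 5 were lower (10.9%, against 0.664%) and 0 higher (43 of 46 below 0, median -0.19), among them Aspm (-0.39 ± 0.078), Ect2, an activator of cytokinesis (-0.31 ± 0.063), and Kif2c (-0.33 ± 0.069). Of 41 other replication genes, 0 were lower and 2 higher in medium (4.88%, against 4.16%), Tk1, thymidine kinase (0.66 ± 0.094, adjusted p = 0.00319), and the helicase activator Cdc45 (0.33 ± 0.049, adjusted p = 0.00379), and 0 passed in IL-4.

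In the IL-4 responses, 7 of the 46 other mitosis genes rose in wild type (15.2%, against 19.4% of all genes) and 1 fell (2.17%, against 16.5%). In AhR-deficient cells 2 rose (4.35%, against 15.4%) and 3 fell (6.52%, against 14.2%), so all 4 shares lay below those of all genes. The chromosome motor Kif4 rose in both (0.43 ± 0.052, adjusted p = 1.64e-05 and 0.47 ± 0.060, adjusted p = 3.98e-05), and Pttg1, which encodes securin, the guard of sister chromatid cohesion, fell in both (-0.55 ± 0.12, adjusted p = 0.0029 and -0.62 ± 0.14, adjusted p = 0.00462). Of the 41 other replication genes, 8 rose (19.5%) and 3 fell (7.32%) in wild type, and 2 rose (4.88%) and 3 fell (7.32%) in AhR-deficient cells, shares near or below the same shares of all genes. Prim2, a primase subunit, rose in both (0.35 and 0.24), while Rpa2, which coats single-stranded DNA (-0.54 and -0.68), and Tk1 (-0.42 and -0.97) fell in both. Of the 16 genes of the Rb, E2F and DREAM family, 2 rose (12.5%) and 1 fell (6.25%) in wild type, both below the shares of all genes: E2f5 rose (0.96 ± 0.092, adjusted p = 1.71e-06), E2f6 rose (0.22), and Rb1, the retinoblastoma gene, fell (-0.40 ± 0.066, adjusted p = 0.000273). In AhR-deficient cells 2 rose (12.5%, against 15.4%) and 3 fell (18.8%, against 14.2%), with E2f5 at 0.78, Rb1 at -0.25 and Rbl2 at -0.29.

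The lists of quiescence and p53 target genes were likewise chosen with earlier results of these data known. Of 16 genes of quiescence, 8 fell (50%, against 16.5% of all genes) and 2 rose (12.5%, against 19.4%) with IL-4 in wild type. In AhR-deficient cells 6 fell (37.5%, against 14.2%) and 2 rose (12.5%, against 15.4%). The antiproliferative Btg1 fell in wild type (-1.05 ± 0.094, adjusted p = 9.04e-07), as did Klf2 (-1.18 ± 0.11, adjusted p = 1.07e-06), a factor that keeps leukocytes at rest, and the Myc antagonist Mxi1 (-1.34 ± 0.13, adjusted p = 2.04e-06), and Klf4 rose (0.93 ± 0.066, adjusted p = 9.49e-08). In AhR-deficient cells Klf2 (-1.32), Mxi1 (-1.20) and the stress gene Gadd45a (-2.18 ± 0.29) fell and Klf4 rose (0.62). Of 19 p53 target genes, 5 rose and 5 fell in wild type (26.3% each, against 19.4% and 16.5% of all genes), and 4 rose (21.1%, against 15.4%) and 5 fell (26.3%, against 14.2%) in AhR-deficient cells. Pmaip1, which encodes the death factor Noxa, fell (-1.68 ± 0.18 and -1.67 ± 0.20), Mdm2 fell (-0.43 ± 0.067 and -0.54 ± 0.077), and the DNA polymerase gene Polk rose (0.66 ± 0.062 and 0.61 ± 0.072). Cdkn1a, itself a p53 target, did not pass, as given above.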

How the data were processed

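Messenger RNA of purified mouse bone marrow monocytes was sequenced in 14 libraries of 4 groups. The authors deposited a table of raw counts by gene and library, and its 14 columns were matched to a sample by its title. The submitters' processing notes name FastQC, STAR and mm10, with no versions. The sources used here do not give the counting program, annotation or strand setting. Symbols, exon lengths and positions came from GENCODE M21 (GRCm38), matched by identifier (55394 of 55487).

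The model was fitted with edgeR 4.0.16 in R 4.3.3: filterByExpr, TMM scaling, 1 quasi-likelihood model of all 14 libraries (10 residual degrees of freedom), 4 contrasts and the interaction, and Benjamini-Hochberg adjustment over 14754 genes, with calls at an adjusted p under 0.05. CPM are TMM-scaled, and a standard error is the fold change over the root of F. The steps were tested on simulated counts. Alternatives used DESeq2 1.42.0 and limma 3.58.1, other filters, the number as a block, and each library left out. Libraries of the same number deviated together: over 14754 genes their deviations from group means correlated at 0.269 to 0.44, and each of the 14 libraries matched its own number best. Over the 8681 genes whose mean log2 CPM reached 3, 6 of 7 pairs were over 0.1 and number 7 was at 0.0998. The numbers were therefore used as pairs in the block fits and in the counts within numbers. The main model, which gave the main counts and the figures of fold changes, had no block. No number is in both genotypes, so genotype differences have no fixed block.

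All 48 members could be named. In each pathway list up to 4 called genes of smallest adjusted p, and in each marker list up to 3 of highest CPM, could be named. Members and lists were chosen with earlier results of these data known. Figures were drawn with matplotlib 3.10.9.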

Additional observations from a re-analysis of the deposited data

Results flagged for a closer look

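Aurka, which encodes a kinase of the spindle poles, was higher in IL-4 within each of the 4 wild-type numbers and lower within each of the 3 AhR-deficient numbers. The difference between the responses, AhR-deficient minus wild type, was -0.22 ± 0.12 on the log2 scale (adjusted p = 1, edgeR; adjusted p = 0.433 with the number as a block), so it did not pass. The 2 responses did not pass alone either.

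In groups of 4 libraries, 2 single values lay far from the other 3. Mcm2 in the wild-type medium library of number 7 was at 48.8 CPM, against 58.9 to 61.0 in the others. Cdt1 in the wild-type IL-4 library of number 7 was at 56.8 CPM, against 48.9 to 50.2. Chance flags about 1 in 20 groups examined this way, or about 5.5 of the 110 examined here (48 genes and 7 role means in each of 2 groups), which is more than the 2 seen. Both values belong to number 7.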

How the results depend on the processing

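The IL-4 rises in wild type held best. Across other scaling, tests and filters 11 to 18 members rose and 3 to 5 fell, and with 1 library left out 11 to 17 rose and 2 to 4 fell. In AhR-deficient cells 5 to 8 rose and 1 to 3 fell with 1 library left out, and 6 fell with the replicate block. The block added 5 calls in wild type (Mcm7, Ccna2, Kif11 and Tpx2 up, Rrm2 down) and 4 in AhR-deficient cells (Ccnd3 up, Rrm2, Birc5 and Cdkn1b down), ended that of Cdkn2c, and changed no other call. The block without number 7 gave 8 falls in wild type and 6 in AhR-deficient cells.

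The genotype counts depended on the settings. In medium, 12 members were lower by the DESeq2 Wald test, 11 with a minimum of 1 CPM in 3 libraries, 12 without number 7, and 0 were lower and 0 higher in a fit of the compared groups alone. With 1 library left out the range was 1 to 13 lower and 1 to 3 higher. In IL-4, DESeq2 called 11 lower and 2 higher, the compared groups alone 7 lower, the random replicate block 6 lower, and the fit without number 7 6 lower. With 1 library left out the range was 0 to 9 lower and 0 to 2 higher. The interaction stayed at 0 in every fit. No called member reversed in any fit, and the cause of these shifts was not tested. Alternatives without number 7 were chosen after seeing the data. Apart from the fixed block of all libraries and the interaction, counts of alternative fits stand without the share of all genes in the same fit. Whether they exceed that share is not shown.

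Each library held at least 33432502 counts. Depth limits most the members of lowest level, Ccnd1 and Ccnd2.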
